A study of Saccharomyces cerevisiae with 8 samples.

Results

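The genes described here encode the proteins of the cytosolic ribosome of Saccharomyces cerevisiae, most of which exist as an A and a B copy on different loci. Members were taken by symbol: RPL or RPS followed by a number and an optional A or B, together with the stalk genes RPP0, RPP1A, RPP1B, RPP2A and RPP2B. Of 137 yeast genes whose symbol fits, forming 59 A/B pairs and 19 single-copy genes, 127 were matched to a probe set through the platform table, among 5449 yeast genes so matched. All 127 passed the filter on dim signals, as did 5412 of the 5449. Both genes of a pair could be read in 50 pairs. Total RNA had been extracted from 8 cultures of the laboratory strain DBY7286, each on 1 Affymetrix array that carries probe sets for S. cerevisiae and for the fission yeast S. pombe. In 4 independent cultures the medium received 10 µM ferrous ammonium sulfate (low iron), and in the other 4 it received 300 µM (high iron). Every culture also contained 1 mM Ferrozine, which chelates ferrous iron, 1 µM copper and 25 mM MES at pH 6.1. Growth lasted about 18 h at 30 °C and ended at an A600 of 0.5. All values come from 1 strain, and the comparison made was low iron over high iron.

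A ribosome has a small subunit, which decodes the messenger RNA, and a large subunit, which joins the amino acids. The large subunit bears a stalk of acidic proteins that recruits the elongation factors. The genes of these proteins are among the most strongly transcribed in growing yeast, and they are usually regulated together through the TOR and protein kinase A pathways and the activators Rap1, Fhl1, Ifh1 and Sfp1. An ancient genome duplication left many of them with paralogues whose proteins are identical or nearly so.

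The deposited signals are MAS5 intensities, scaled to a common mean on each array, so a change in total messenger RNA per cell cannot be seen, and fewer cells and less RNA per cell cannot be told apart. The median of the 127 genes read 5118, 5078, 4733 and 5169 units in the low-iron cultures, against 4722, 5176, 4831 and 4852 units in the high-iron cultures. These medians overlapped (two-sided exact permutation test, p = 0.429). Among the 100 brightest genes of an array, members numbered 39, 38, 41 and 40 in low iron, against 45, 49, 42 and 42 in high iron, without overlap (exact permutation p = 0.0286, and 4 against 4 cannot give less). The 127 genes supplied between 9.84% and 10.4% of the summed signal of an array in low iron, against 9.81% to 10.6% in high iron. Their signals lay close to the top of the scale. The brightest probe set of an array of any kind read 6933 to 7706 units in low iron, against 6597 to 7325 units in high iron, and on 3 high-iron arrays it belonged to a ribosomal protein gene. A gene is called near the maximum here when its mean over the 8 arrays reached 3562 units, 50% of the mean of the array maxima. This held for 112 of the 127, and a real difference between cultures can read smaller than it was at such signals, which was not tested. The 15 genes below that level were RPL4B, RPL9B, RPL15B, RPL22B, RPL26B, RPL31B, RPL39, RPL41A, RPS1A, RPS9A, RPS10B, RPS19A, RPS22A, RPS22B and RPS28B.

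**Figure D1:**
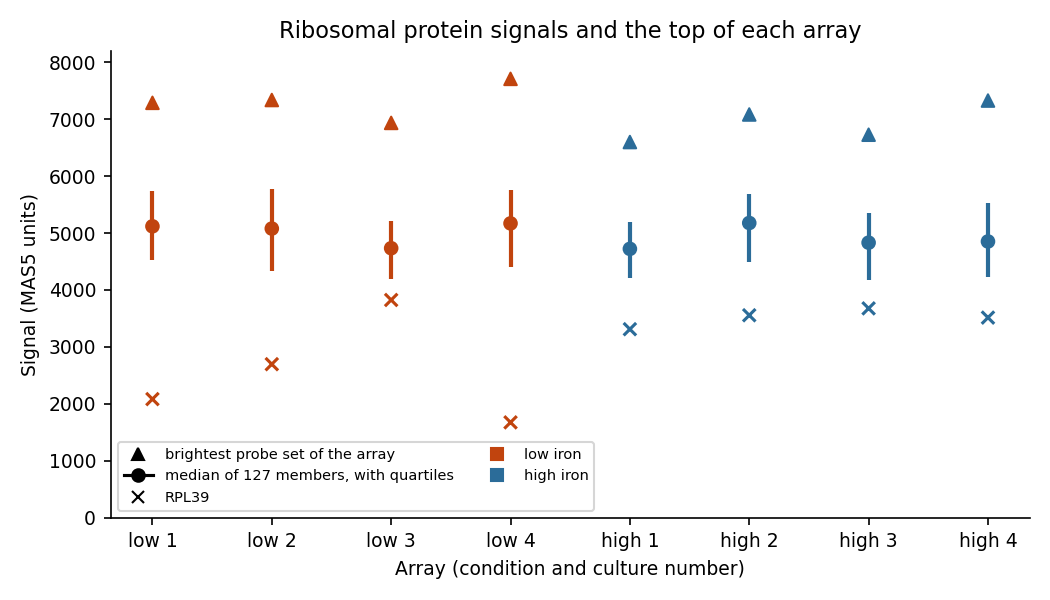
Signal in MAS5 units on each of the 8 arrays (low iron 1 to 4, then high iron 1 to 4): the brightest probe set of the array (triangles), the median of the 127 ribosomal protein genes with the bar from the lower to the upper quartile (circles), and RPL39 (crosses). The medians of low-iron culture 3 (4733 units) and high-iron culture 1 (4722 units) were the lowest of their conditions, and RPL39 read 3825 units in low-iron culture 3 while the other low-iron cultures lay at 1676 to 2697 units.

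Low-iron culture 3 stood apart from the other low-iron cultures in these genes. It held the lowest low-iron signal in 82 of the 112 genes near the maximum and the highest low-iron signal in 10 of the 15 dimmer ones. Among the high-iron arrays culture 1 was the lowest in 70 and culture 2 the highest in 84 of the 112 genes. The median signal of the 17 ribosomal RNA control probe sets read 2682, 2567, 3371 and 3707 units in low iron, against 3744 to 4321 units in high iron, so these groups did not overlap. The ratio of 3′ to 5′ signal of the actin gene ACT1, a measure of RNA integrity, was 1.15 to 1.26 in low iron and 1.21 to 1.30 in high iron. The part of these array differences in the results was not tested. The main counts below of members and pairs that passed the limma test are given with and without low-iron culture 3 where they turned on it. Counts of groups that did not overlap, of intervals and of unadjusted p-values are given over all arrays only. So are the counts called within each list of genes that regulate or serve the ribosome. These counts may also turn on low-iron culture 3.

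Few ribosomal protein transcripts differed detectably between the iron conditions. Of the 127 genes 2 were higher in low iron, RPS9A and RPL22B, and 2 were lower, RPS10A and RPS10B (limma, adjusted p under 0.05). That is 3.15% of the members, against 39.4% of all 5412 genes tested, of which 16.8% were higher and 22.7% lower. The median log2 change of the members was 0.042, and that of all genes tested was -0.018. Positive changes numbered 93 and negative changes 34, and they spanned -0.52 to 0.54. Over all genes tested 2548 of 5412 changes were positive, and among the 296 other genes near the maximum 229 were. The intervals give the range of change in signal compatible with the arrays. In 122 of 127 genes the 95% interval of the log2 change lay within 0.5 of no change, which is a fold of 1.41, and in 108, of which 104 were near the maximum, it lay within 0.25, a fold of 1.19. The same interval counts were 3681 and 1409 of all 5412 genes tested, and 280 and 207 of the 296 other genes near the maximum. Before adjustment 11 members had p under 0.05, against 2648 of all 5412 genes and 116 of those 296. The 4 low-iron signals all exceeded the 4 high-iron signals in 2 members, RPS9A and RPL22B, and all lay under them in 1, RPL9A, against 38.5% of all genes tested whose groups did not overlap (16.8% higher and 21.8% lower).

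**Figure D2:**
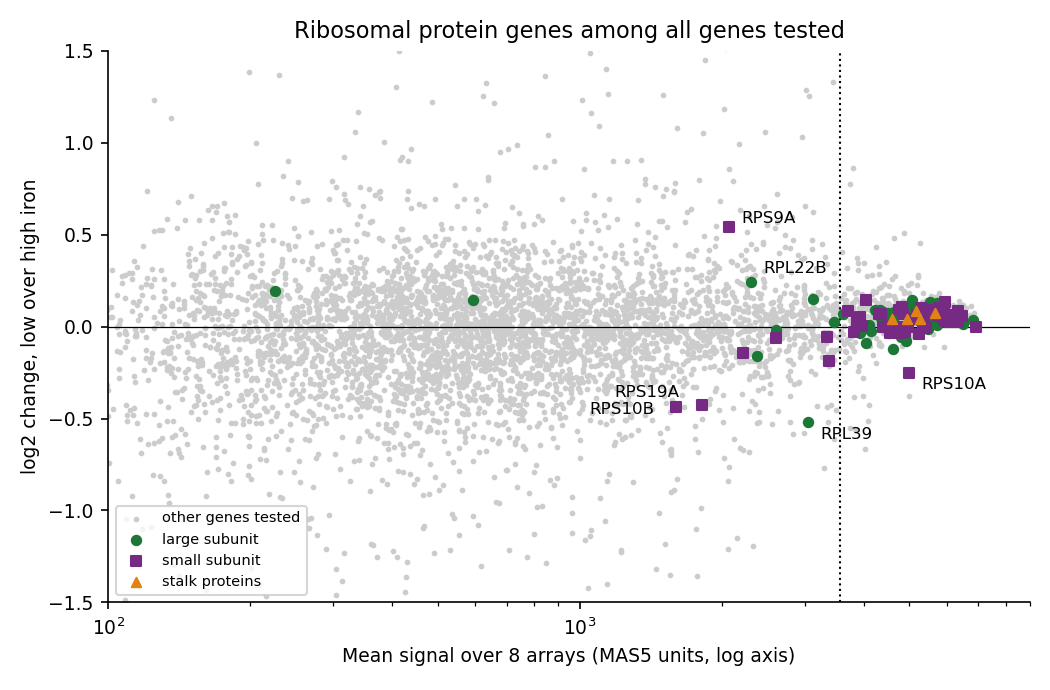
Mean signal over the 8 arrays (MAS5 units, log axis) against the log2 change in low over high iron for the ribosomal protein genes of the large subunit (circles), small subunit (squares) and stalk (triangles) among all other genes tested (grey); the dotted line marks 3562 units, and genes under 100 units or beyond a change of 1.5 are outside the axes. The members crowd at the right end around a change of 0, and RPS9A, RPL22B, RPL39, RPS10A, RPS10B and RPS19A stand away from the rest.

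The calls divide by brightness as follows. Of the 112 members near the maximum 1 was called, RPS10A, which is 0.893%. Among 296 other genes that were as bright 81 were called, 67 higher and 14 lower in low iron, which is 27.4%. Without low-iron culture 3 these counts were 26 of 112 members (23.2%) and 143 of 296 other genes (48.3%). Of the 15 dimmer members 3 were called (20%), and 7 without low-iron culture 3 (46.7%). Of all genes tested 39.4% were called, and 42.6% without low-iron culture 3. By subunit, 1 of 70 large-subunit genes, 3 of 52 small-subunit genes and none of the 5 stalk genes were called by limma. Of the stalk genes, 0 had an unadjusted p under 0.05. Without low-iron culture 3 the calls were 14 in the large subunit (20%), 18 in the small subunit (34.6%) and 1 in the stalk (20%).

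Without low-iron culture 3 both counts were larger. Then 27 members were higher and 6 lower in low iron, 26.0% of the 127, against 42.6% of all genes tested (18.6% higher and 24.0% lower). The 25 members that joined RPS9A and RPL22B as higher were all near the maximum, with log2 changes of 0.13 to 0.22. The 6 that were lower were RPL9B, RPL39, RPS10A, RPS10B, RPS19A and RPS22A, with log2 changes of -0.73 to -0.23. Leaving out any other single culture gave 2 higher members and at most 3 lower ones. RPS9A and RPL22B were higher in low iron under each of the 25 alternatives tried, with log2 changes of 0.50 to 0.58 for RPS9A and 0.21 to 0.28 for RPL22B.

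RPS9A, on locus YPL081W, was the member with the largest rise in low iron. It encodes one copy of Rps9, a protein of the small subunit body that binds ribosomal RNA early in assembly. RPS9A read 2432, 2461, 2513 and 2424 units in the low-iron cultures, against 1810, 1683, 1721 and 1558 units in the high-iron cultures. Every low-iron signal lay above every high-iron signal, and the low-iron cultures differed among themselves by under 100 units. The means were 2457 ± 40.3 units in low iron and 1693 ± 105 units in high iron (SD, n = 4 each), and the log2 change was 0.54 with an SE of 0.053 (limma adjusted p = 3.2e-05). Its paralogue RPS9B did not share this change. RPS9B read 4811, 4942, 4761 and 4900 units in low iron, against 4860, 5201, 4761 and 4964 units in high iron. The conditions overlapped, and the log2 change was -0.027 with an SE of 0.038 (limma adjusted p = 0.604), although RPS9B was near the maximum and RPS9A was not.

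RPS10A and RPS10B, whose protein sits in the head of the small subunit near the entry of the messenger RNA, were both lower in low iron. RPS10A read 5118, 4345, 4651 and 4139 units in low iron, against 5452, 5903, 5532 and 4805 units in high iron. RPS10B read 1266, 1346, 1686 and 1146 units in low iron, against 1897, 2066, 1990 and 1427 units in high iron. In each gene 3 high-iron cultures exceeded every low-iron culture, and high-iron culture 4 fell within the low-iron range. The log2 changes were -0.25 ± 0.076 for RPS10A (limma adjusted p = 0.0247) and -0.44 ± 0.14 for RPS10B (limma adjusted p = 0.027; SE). Both brightest probe sets carry the suffix for probes that cross-hybridise, and the adjusted p passed the threshold in 15 of 24 alternatives for RPS10A and in 17 of 25 for RPS10B.

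**Figure D3:**
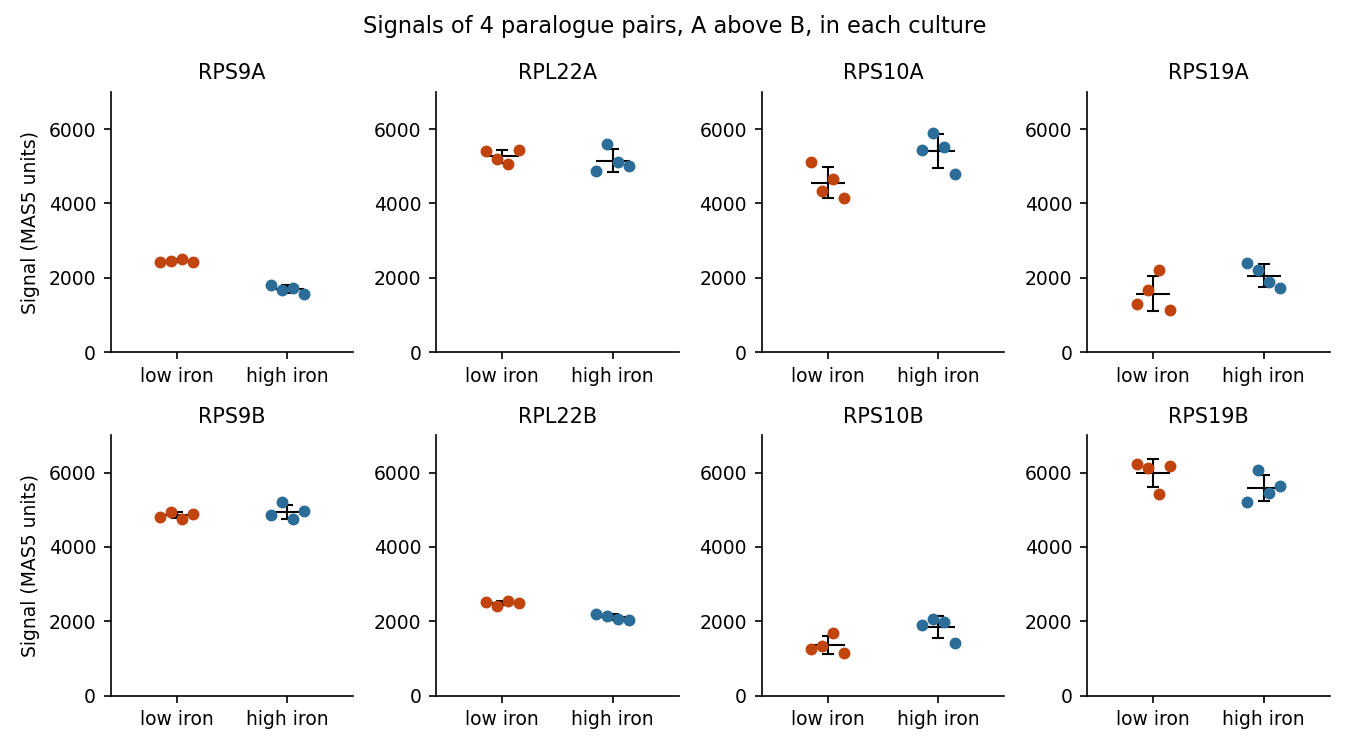
Signals in MAS5 units of RPS9, RPL22, RPS10 and RPS19, with the A copy in the upper row and the B copy in the lower row; each point is 1 culture, low iron on the left and high iron on the right, and the bars give the mean and SD (n = 4). RPS9A and RPL22B have low-iron points that all lie above the high-iron points, while RPS9B and RPL22A overlap between conditions.

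RPS19A, one copy of a head protein needed to mature the small subunit, varied widely between cultures. RPS19A read 1295, 1666, 2200 and 1124 units in low iron, against 2409, 2206, 1885 and 1738 units in high iron. Low-iron culture 3 lay among the high-iron cultures, and the other 3 lay under all of them. The log2 change was -0.43 ± 0.19 (SE; limma adjusted p = 0.0946), and without low-iron culture 3 it was -0.60 (limma adjusted p = 0.0083). RPS19B read 6234, 6118, 5418 and 6166 units in low iron, against 5206, 6059, 5452 and 5633 units in high iron, with a log2 change of 0.099 (limma adjusted p = 0.202, and 0.0362 without low-iron culture 3).

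RPS22A, which encodes another small-subunit protein bound to ribosomal RNA, had a log2 change of -0.19 with an SE of 0.082 (limma adjusted p = 0.0909). Its signals were 2681, 3134, 3453 and 3382 units in low iron, against 3599, 3947, 3469 and 3359 units in high iron. Low-iron cultures 1 and 2 lay under every high-iron culture, and low-iron cultures 3 and 4 lay within the high-iron range. The log2 change of RPS22A was -0.23 without low-iron culture 3 (limma adjusted p = 0.0437). Its partner RPS22B read 3129 to 3430 units in low iron and 3330 to 3474 units in high iron, a log2 change of -0.056 (limma adjusted p = 0.341). RPS28B, a copy of a protein at the exit of the messenger RNA channel, read 1884 to 2572 units in low iron against 2179 to 2442 units in high iron, and RPS28A read 3671 to 3846 units in low iron against 3594 to 4147 units in high iron. Neither RPS28 gene passed the test.

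RPL22B, on locus YFL034C-A, was the large-subunit member that rose. Rpl22 is a eukaryote-specific protein on the outer side of the large subunit. RPL22B read 2530, 2416, 2550 and 2490 units in low iron, against 2200, 2155, 2051 and 2030 units in high iron. The lowest low-iron culture lay above the highest high-iron culture. Means were 2496 ± 59 units in low iron and 2109 ± 81.6 units in high iron (SD, n = 4 each), and the log2 change was 0.24 with an SE of 0.045 (limma adjusted p = 0.00185). RPL22A, the copy with the brighter probe set, read 5405, 5198, 5062 and 5427 units in low iron, against 4875, 5588, 5108 and 5009 units in high iron. These overlapped, and the log2 change was 0.037 with an SE of 0.048 (limma adjusted p = 0.571), although RPL22A was near the maximum and RPL22B was not.

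RPL39, a small single-copy protein that lines the polypeptide exit tunnel, had the most negative log2 change of the 127 but did not pass the test. It read 2084, 2697, 3825 and 1676 units in low iron, against 3312, 3556, 3677 and 3515 units in high iron. The low-iron cultures spread more widely than the high-iron cultures, with culture 3 above every high-iron culture and the others below them all. The log2 change was -0.52 ± 0.20 (SE; limma adjusted p = 0.0632), and without low-iron culture 3 it was -0.73 (limma adjusted p = 0.00176).

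The next members by positive change were all large-subunit genes, and none of them passed the test. RPL41A, the source of a very short peptide in the ribosome, was the dimmest member, with 297, 228, 268 and 170 units in low iron against 247, 163, 180 and 249 units in high iron. These overlapped widely, and the log2 change was 0.19 with an SE of 0.19 (limma adjusted p = 0.444). RPL4B, a copy of a protein that reaches into the exit tunnel, read 3461, 3047, 3547 and 3080 units in low iron and 3258, 3026, 2721 and 2813 units in high iron. Low-iron cultures 1 and 3 lay above every high-iron culture, and the log2 change of RPL4B was 0.15 (limma adjusted p = 0.112). RPL15B, a copy of a core protein of the large subunit, read 665, 597, 634 and 601 units in low iron against 577, 598, 538 and 543 units in high iron. Its high-iron culture 2 reached the low end of the low-iron range, and the log2 change was 0.15 ± 0.063 (SE; limma adjusted p = 0.0886). RPL9A, a protein close to the base of the stalk and outside the rule for naming, is given because its groups did not overlap. It read 3855 to 3962 units in low iron and 3964 to 4348 units in high iron, with a log2 change of -0.088 (limma adjusted p = 0.108).

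RPL40A and RPL40B encode the same large-subunit protein fused to ubiquitin, which is cleaved off. RPL40A read 5448, 5858, 5026 and 5799 units in low iron, against 4941, 5631, 5119 and 5326 units in high iron. RPL40B read 4846, 4615, 4951 and 4441 units in low iron, against 4723, 5634, 4707 and 4569 units in high iron. Both genes overlapped between conditions, and high-iron culture 2 was the highest of all 8 in RPL40B. In the small subunit, RPS7A read 5786, 5607, 4997 and 5526 units in low iron, against 4848, 5176, 5208 and 5209 units in high iron. RPS7B read 4868, 4235, 4719 and 4698 units in low iron, against 4659, 4619, 4784 and 4783 units in high iron. All low-iron cultures but culture 3 exceeded every high-iron culture in RPS7A, while RPS7B overlapped. The log2 changes were 0.099 for RPS7A (limma adjusted p = 0.138, and 0.0146 without low-iron culture 3) and -0.027 for RPS7B (limma adjusted p = 0.672).

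The stalk had no called difference over all 8 arrays, and 1 without low-iron culture 3. RPP0, the single-copy base that anchors the other stalk proteins, read 5486, 5611, 4669 and 5558 units in low iron, against 4811, 5284, 4960 and 4981 units in high iron. Low-iron culture 3 was the lowest of the 8 and the other low-iron cultures the highest 3. The log2 change of RPP0 was 0.087 ± 0.061 (SE; limma adjusted p = 0.282), and without low-iron culture 3 it was 0.15 (limma adjusted p = 0.0123). The acidic proteins encoded by RPP1A, RPP1B, RPP2A and RPP2B had log2 changes of 0.040 to 0.073, and all 5 stalk genes had 95% intervals within 0.25 of no change.

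None of the 18 single-copy genes tested was called by limma, and 1 of them, RPL39, had an unadjusted p under 0.05. Without low-iron culture 3, 7 of the 18 were called (38.9%), against 42.6% of all genes tested. RPL5, RPL29, RPP0, RPS2, RPS3 and RPS13 were then higher and RPL39 lower in low iron. Over all 8 arrays the log2 changes of the 18 genes ran from -0.52, in RPL39, to 0.14, in RPS2, and 16 were positive. RPS2 encodes a small-subunit protein that affects decoding accuracy. Yeast makes 2 of its ribosomal proteins as fusions to ubiquitin, from RPS31 and the RPL40 pair. RPS31 read 6383 ± 246 units in low iron and 6269 ± 324 units in high iron (SD, n = 4 each). The 3 fusion genes had log2 changes of -0.055 to 0.074 and none was called.

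Whether iron shifts the balance within a pair was asked with the log2 of the A signal over the B signal on the same array, which array scaling does not alter. The level of this ratio also depends on how strongly each probe set responds, so only its change with iron is read. The A signal was the higher on all 8 arrays in 19 pairs, the B signal in 15, and the order varied between arrays in 16. The ratio changed in 2 of the 50 pairs, RPS9 and RPL22, by limma with p-values adjusted over the 5412 genes and 50 pairs together, a fit in which 39.0% of all gene and pair values passed. In both pairs it was the copy with the dimmer probe set that was higher in low iron, A in RPS9 and B in RPL22. The other copy of each was near the maximum, where a difference can read smaller than it was. Both belong to the 12 pairs in which 1 copy or neither was near the maximum. The part of this in the ratios was not tested.

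For RPS9 the log2 ratio was -0.98, -1.01, -0.92 and -1.02 in low iron, against -1.42, -1.63, -1.47 and -1.67 in high iron. All low-iron ratios lay above all high-iron ratios, with a change of 0.57 (95% interval 0.43 to 0.70; limma adjusted p = 5.46e-05; two-sided exact permutation p = 0.0286). For RPL22 the log2 ratio was 1.10, 1.11, 0.99 and 1.12 in low iron, against 1.15, 1.37, 1.32 and 1.30 in high iron. The groups again did not overlap, with a change of -0.21 (95% interval -0.33 to -0.084; limma adjusted p = 0.0136; exact permutation p = 0.0286). The change in RPS19, -0.53, was the second largest in size but had a 95% interval of -1.01 to -0.037 and did not pass (limma adjusted p = 0.0829). Its low-iron ratios ran from -2.45 to -1.30 and its high-iron ratios from -1.70 to -1.11. The change in RPS19 was -0.75 without low-iron culture 3 (limma adjusted p = 0.00384). With probe sets of the shared suffix left out it was -0.34 (limma adjusted p = 0.103), RPS19B then being read from its own probe set, with a log2 change of -0.082 in place of 0.099.

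**Figure D4:**
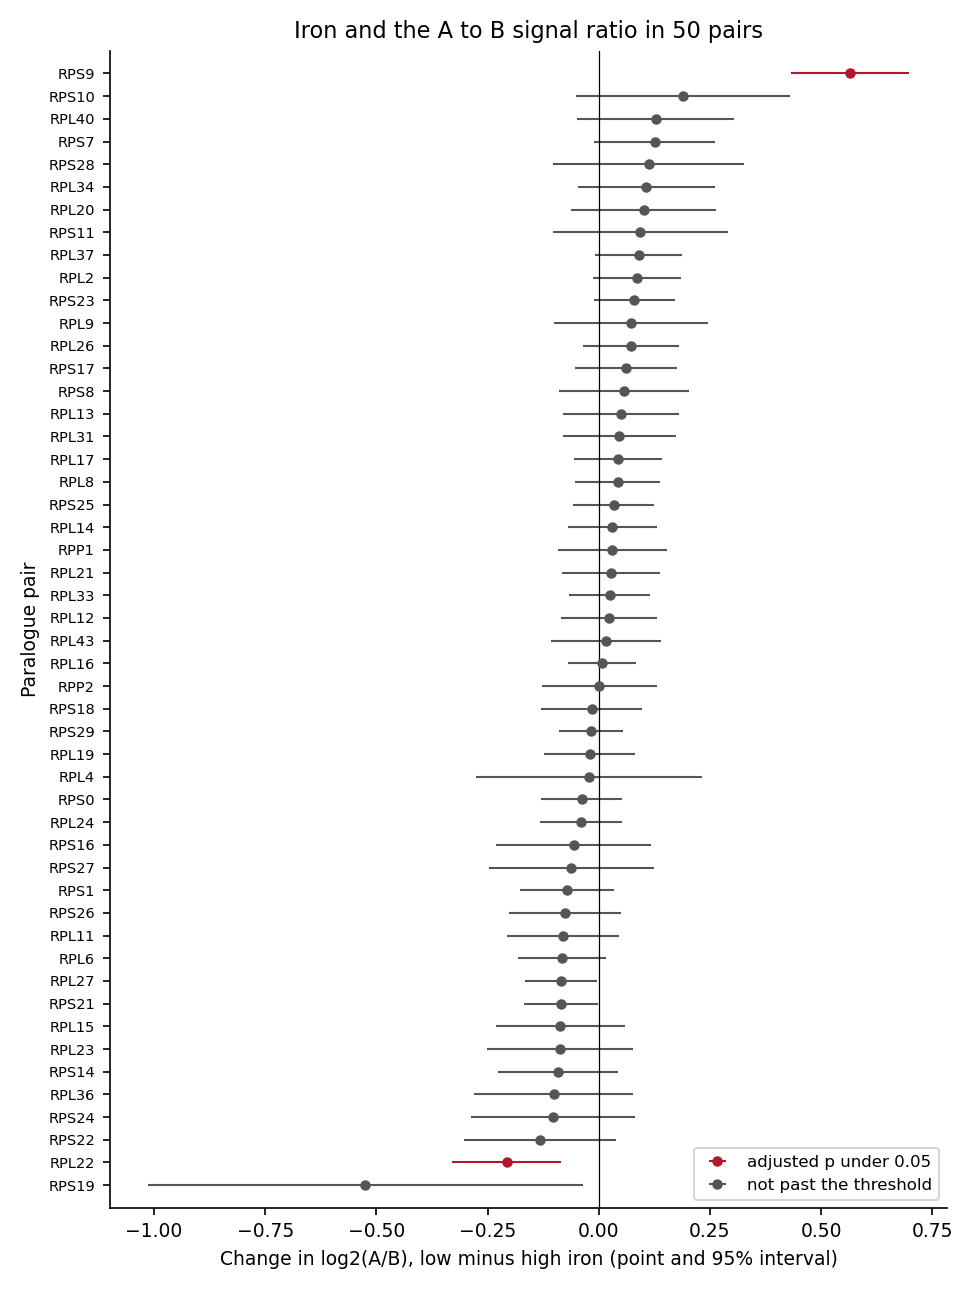
Change in the log2 ratio of A to B signal, low minus high iron, with its 95% interval, for the 50 pairs in order of the change; red marks an adjusted p under 0.05. RPS9 (0.57) and RPL22 (-0.21) pass the threshold, and the interval of RPS19 is the widest.

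The other 47 pairs had changes between -0.13 and 0.19, and none passed on the brightest probe sets. Among them RPS10 had 0.19, with both copies lower in low iron, and RPS22 had -0.13. RPL40 and RPS7, a pair whose protein helps process the small-subunit ribosomal RNA, each had 0.13, and RPS28 had 0.11. The pairs with the smallest change in ratio were RPP2 of the stalk (0.0016, 95% interval -0.13 to 0.13), RPL16 of the large subunit (0.0067, -0.069 to 0.083) and RPS18 of the small subunit head (-0.016, -0.13 to 0.098). Across all 50 pairs the 95% interval lay within 0.5 of no change in 48 and within 0.25 in 35. In the 38 pairs with both copies near the maximum no ratio was called by limma, 2 had an unadjusted p under 0.05, and 6 were called without low-iron culture 3. Without low-iron culture 3 the ratio was called in 11 of 50 pairs, with RPS9, RPL22, RPS19, RPS10, RPS7 and RPL40 among them, in a fit where 42.3% of all gene and pair values passed, while each other single omission gave 2. With probe sets of the shared suffix left out 3 of 49 pairs were called, RPL14 besides RPS9 and RPL22.

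Probes shared between paralogues limit what can be assigned to a copy. The genes RPL1A, RPL7B, RPL35B, RPL41B, RPL42A, RPS4A, RPS6A and RPS30B, each one copy of a pair, were not matched to a probe set here. In each of these pairs the brightest probe set of the other copy is named with the suffix that marks probes common to several sequences, so its signal may come from either gene. In all 23 members were read from a brightest probe set with a suffix of this kind. They were the partners RPL1B, RPL7A, RPL35A, RPL41A, RPL42B, RPS4B, RPS6B and RPS30A, and the members RPL2A, RPL4A, RPL14B, RPL18B, RPL21A, RPS8A, RPS10A, RPS10B, RPS11B, RPS19B, RPS23A, RPS24A, RPS26A, RPS29A and RPS29B. Of the 23, RPS10A and RPS10B were called (8.7%), against 39.4% of all genes tested. Without low-iron culture 3, 9 of the 23 were called (39.1%), against 42.6% of all genes tested. These 23 had a median log2 change of 0.058, and the 104 read without the suffix had 0.041.

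In 20 members a probe set with the suffix could be set beside one without it for the same gene. The genes given below were picked after their values were seen. RPL18B, a large-subunit protein, read 1072, 1000, 1280 and 972 units on its own probe set in low iron, against 1649, 1471, 1374 and 1558 units in high iron. There every low-iron culture lay under every high-iron culture, and the log2 change was -0.49 with an SE of 0.092 (limma adjusted p = 0.00203 over 5498 gene probe sets). On its brighter probe set with the suffix RPL18B read 4913 to 5401 units in low iron against 4828 to 5587 units in high iron, a log2 change of 0.042 (limma adjusted p = 0.565). RPL14B, also of the large subunit, had -0.17 on its own probe set (limma adjusted p = 0.0286) and 0.039 on the other. RPS11B, of the small subunit, had -0.23 on its own probe set (limma adjusted p = 0.0529) and -0.042 on the other. For RPS10A the probe set without the suffix gave -0.098 (limma adjusted p = 0.577), and for RPS10B it gave -0.38 (limma adjusted p = 0.0593), so the calls of this pair hold only on the probe sets with the suffix.

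**Figure D5:**
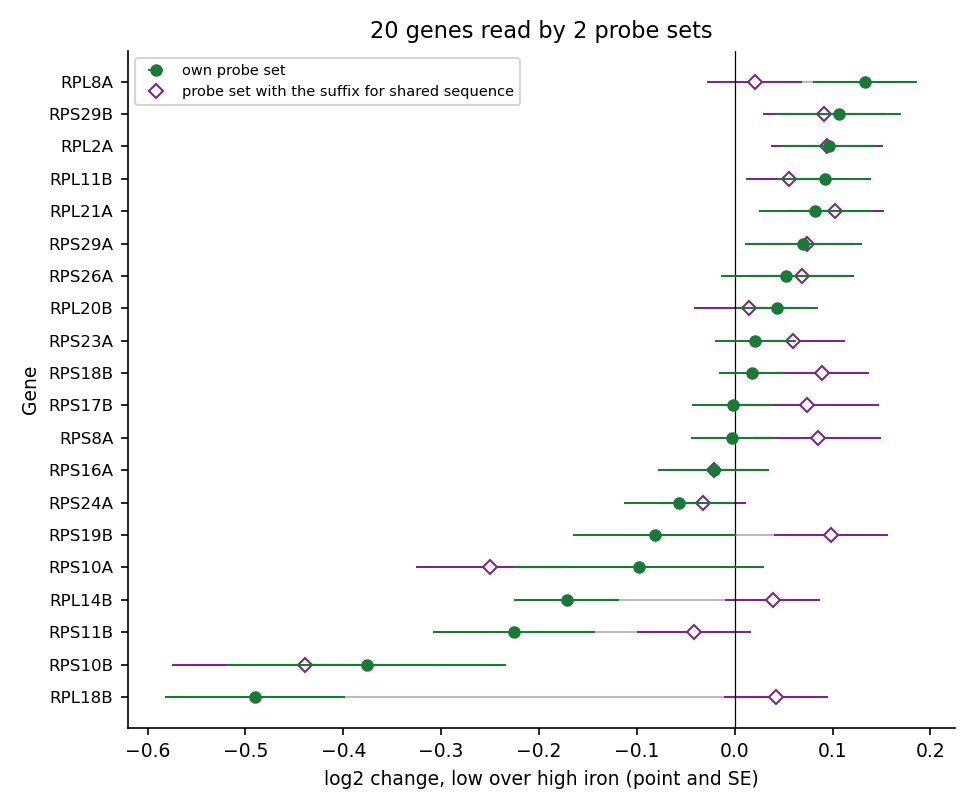
Log2 change in low over high iron, with its SE, of 20 genes read by 2 probe sets, one without (filled circles) and one with the suffix for shared sequence (open diamonds). Among others, the points lie apart in RPL18B (-0.49 and 0.042), RPL14B (-0.17 and 0.039), RPS11B (-0.23 and -0.042) and RPS19B (-0.082 and 0.099). RPS10A has -0.098 without and -0.25 with the suffix, and RPS10B is negative on both.

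Genes that regulate or serve the ribosome were read in the same fit, in which 39.4% of all genes were called. Of 25 regulators of ribosomal protein transcription, which include the TOR pathway and its targets, 3 were higher and 5 lower in low iron, with a median log2 change of -0.0028. TCO89, a subunit of TOR complex 1, read 598, 618, 547 and 523 units in low iron, against 447, 438, 427 and 413 units in high iron. The groups did not overlap, and the log2 change was 0.40 (limma adjusted p = 0.00114). The TOR genes themselves differed in direction. TOR2 was higher in low iron (log2 change 0.38, limma adjusted p = 0.00743) and TOR1 lower (-0.36, limma adjusted p = 0.00956). In the same list KOG1 and LST8 were not called. DOT6, a repressor of ribosome biogenesis genes, had 1561 ± 57.9 units in low iron and 1274 ± 65.8 units in high iron (SD, n = 4 each; limma adjusted p = 0.00194). TAP42, a phosphatase partner downstream of TOR, had 355 ± 7.45 units in low iron and 442 ± 23.7 units in high iron, and STB3, a factor that binds ribosomal RNA processing elements in promoters, had 364 ± 11.2 units in low iron and 452 ± 39.3 units in high iron (SD, n = 4 each; limma adjusted p = 0.00244 and 0.00687). Of 10 listed chaperones that bind ribosomal proteins, NAP1 alone was called, with a log2 change of 0.22 (limma adjusted p = 0.0164). Over all 8 arrays none of the 9 elongation factor genes tested and none of 9 genes for ribosome-associated factors was called by limma. An unadjusted p under 0.05 was found in 0 of the elongation factor genes and 2 of the ribosome-associated ones, SSB1 and SSB2. In both, every low-iron culture but culture 3 exceeded every high-iron culture. Calls of these genes without low-iron culture 3 are not given here. Leaving out each array in turn gave 8 to 13 called genes over all these lists, against 9 over all arrays.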

How the data were processed

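The authors deposited linear MAS5 signal intensities, per the submitters' processing notes, with 1 value for each probe set on each array. The MAS5 version and scaling settings were not given in the sources used here. Biotin-labelled total RNA was hybridised, per the labels' protocols. Probe sets were named through the platform annotation and RefSeq gene names, and the brightest of a gene was used. Genes with a mean over 8 arrays above 5.48 units, the 95th percentile of 1746 S. pombe probe sets, were tested. Signals were taken as log2(signal + 1) and compared by a two-sided limma test with a trend on intensity (limma 3.58.1, R 4.3.3), with Benjamini-Hochberg adjustment over all 5412 genes and a threshold of 0.05. Pairs entered a second fit of 5462 genes and pairs as differences of log2 signals. Fold changes on this scale understate those of dim genes. Precision is limited by having 4 arrays per condition. The procedure was also run on simulated data, in which errors were independent between genes. Shifts shared by many genes of an array were not simulated. Cultures are numbered in the order of their samples, and the numbers pair nothing.

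The members and lists were chosen with earlier results of these data known. Genes were named by rule: the 8 pairs with the largest and the 3 with the smallest change in ratio, the 5 largest changes in each direction, members without a probe set (some are not reported here) or with a shared one, single-copy members called, and up to 4 called genes per other list. RPL9A, RPS2, the stalk genes, RPS31, TOR1, TOR2, KOG1, LST8, SSB1 and SSB2 were added after their values were seen. So were the list of members below 3562 units, the members called without low-iron culture 3 and the second probe sets. Alternatives covered pseudocounts of 16 and 64, normalization and centring, filters, trend, array weights, choice of probe sets, and omission of arrays. The plots used Python 3.11.15 and matplotlib 3.10.9.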

Additional observations from a re-analysis of the deposited data

Results flagged for a closer look

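Among 56 groups of 4 values tested for an outlying array, 4 had one by Dixon's criterion at 95%, and chance alone gives about 1 in 20. The log2 ratio of A to B signal in RPS28 was 0.58 in low-iron culture 1, under the 0.91 to 0.96 of the other low-iron cultures. RPS19B read 5418 units in low-iron culture 3, under the 6118 to 6234 units of the other low-iron cultures. RPL40B read 5634 units in high-iron culture 2, above the 4569 to 4723 units of the other high-iron cultures. RPS7A read 4848 units in high-iron culture 1, under the 5176 to 5209 units of the other high-iron cultures.

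Of 14 probe sets for ribosomal protein genes of S. pombe, which have no target in these cultures, 4 exceeded the background of 5.48 units. Their means over the 8 arrays were 24.4 units for rpl13, 8.11 for rps3, 6.51 for rps21 and 5.54 for rps13. These are small beside the 127 S. cerevisiae members, the dimmest of which, RPL41A, averaged 241 units in low iron and 210 units in high iron.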

How the results depend on the processing

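No paired analysis was possible because the numbers of the cultures come from sample order and pair nothing between conditions. The 2 calls RPS9A and RPL22B and the ratios of their pairs held in every alternative that gave a value. Counts of members higher and lower in low iron were 2 and 2. Leaving out each array in turn gave 2 to 27 higher, 0 to 6 lower, a median log2 change of 0.024 to 0.073, 2 to 11 pairs called (2 in the main analysis) and 8 to 13 genes of the other lists (9). Quantile normalization gave 9 lower, a median of -0.027, 4 pairs and 14 genes of the other lists. Averaging the probe sets of each gene gave 1 lower. With probe sets of the shared suffix left out, 118 members and 49 pairs remained. The 2 lower members were then RPL14B and RPL18B, and 3 pairs were called, RPL14, RPL22 and RPS9. Leaving out members near the maximum gave 1 lower, a median of -0.056 and 0 called of the 1 pair left. Without low-iron arrays 1 and 2 the other lists had 14 called, and without low-iron arrays 3 and 4 there were 16 higher, 5 lower, 7 pairs and 17 genes of the other lists. Without low-iron array 3 and high-iron array 1, chosen after the data were seen, 18 were higher and 4 lower, with 7 pairs called. The cause of these shifts was not tested. Signals near the top of the scale and the spread of low-iron culture 3 limit what can be said of the bright members.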
